A study of Mus musculus with 4 samples.

Results

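The matrix metalloproteinases (MMPs), the ADAMTS proteases with their ADAMTS-like relatives, and the tissue inhibitors of metalloproteinases (TIMPs) were followed in messenger RNA from mouse heart ventricles. The members were taken by gene symbol, which gave 51 genes of the 46603 in the deposited table, namely 23 Mmp, 19 Adamts, 5 Adamtsl and 4 Timp genes. All mice were C57Bl6/J and aged 8 to 12 weeks. The 4 groups were P2Y6-null mice (KO, which lack the receptor for the nucleotide UDP) given isoproterenol, KO mice given saline, wild-type (WT) mice given isoproterenol and WT mice given saline, by intraperitoneal injection each day for 7 days. The dose of isoproterenol, which stimulates beta-adrenergic receptors and makes the heart grow, was 50 mg/kg/day. The null allele was not described as limited to a cell type, and the KO control for isoproterenol is KO saline, so both carry it. There was 1 library per group, and the labels do not say if it stands for 1 heart or for pooled hearts.

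MMPs are zinc proteases that cut collagens and other proteins of the extracellular matrix, and most are made as inactive precursors. ADAMTS proteases trim procollagens or cut large proteoglycans, while ADAMTS-like proteins have no protease domain and bind microfibrils. TIMPs block the active site of these enzymes, and in the heart the balance of both is known for its part in scar formation and remodelling after injury or overload.

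Levels are given as CPM (reads per 1000000 in the library). Folds are TMM-scaled ratios of reads between libraries with a 95% counting interval in brackets, and only a gene with all of that interval past 1.5-fold is counted as higher or lower. With 1 library per group there is no replicate error, so the intervals cover counting error only and compare these libraries, not the conditions. The libraries held 18771198 (KO isoproterenol), 22965087 (KO saline), 20721472 (WT isoproterenol) and 25637369 reads (WT saline). P2ry6, the targeted gene, stood at 0.533 and 0.566 CPM in the KO isoproterenol and KO saline libraries, against 5.89 and 5.11 CPM in the WT isoproterenol and WT saline libraries. The 6 cardiomyocyte markers summed to between 51791 and 60869 CPM in each library, so the libraries hold heart muscle as labelled. Of the 51 members, 37 had a mean of at least 10 reads, 9 had fewer and 5 had none, and 0 members passed that minimum only through their highest library.

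Between isoproterenol and saline, Timp1 had the largest ratio of the 37 members in both genotypes, and in the KO pair Mmp2, Mmp14, Adamts2, Adamts8 and Adamts12 were each more than 3-fold higher with it. Timp4 and Mmp15 were lower in the treated KO library. In the KO pair 11 members were higher and 2 lower, where 7.09% and 4.22% of all 14301 genes were counted in those directions (11.3% in either). With total-count scaling, 16 members were higher and 1 lower, and over all genes 1445 were higher and 357 lower, against 1014 and 604 with TMM. In the WT pair 4 members were higher and 0 lower, where 0.860% and 0.797% of all genes were counted (1.66% in either). With total-count scaling, 2 members were higher and 0 lower, and over all genes 99 were higher and 145 lower, against 123 and 114 with TMM. The median log2 ratio of the 37 members was 0.59 in the KO pair and 0.31 in the WT pair, and that of all genes was 0.00 in both. Total-count scaling moved the median of all genes by 0.18 in the KO pair and −0.08 in the WT pair. The 4 members counted in WT (Timp1, Adamts2, Adamts12 and Adamtsl2) made up 4 of the 11 counted as higher in KO and 4 of 4 in WT, in pairs that share no library. With total-count scaling Adamts2 and Adamtsl2 were not counted in WT. The overlap of the pairs over all genes was not computed, so it is not known if this one is particular to the family.

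Markers of fibroblasts and macrophages, known sources of these proteins, also differed between the libraries. The 8 fibroblast markers summed to 3124 CPM in the KO isoproterenol, 2294 in the KO saline, 2538 in the WT isoproterenol and 2573 in the WT saline library, with 5 higher and 1 lower in the KO pair and 2 higher and 0 lower in the WT pair. The 4 markers of activated fibroblasts summed to 2301, 218, 517 and 296 CPM in the same order of libraries, with 3 higher in KO and 2 in WT. The 8 macrophage markers summed to 344, 178, 175 and 187 CPM, with 4 higher in KO and 1 in WT, and 0 lower in either. The 8 neutrophil markers summed to between 1.79 and 3.52 CPM, with Ly6g at 0 reads throughout. Only 2 of them had enough reads to be counted, and 0 were counted in either pair. Cardiomyocyte markers had 2 of 6 lower in KO and 0 in WT. The 5 endothelial markers (783 to 869 CPM) and the 5 mast cell markers (10.4 to 12.8 CPM) had 0 counted in either pair. The 6 B and T cell markers (2.66 to 3.41 CPM) also had 0 counted, but only 3 of them had enough reads. Of 5 smooth muscle and pericyte markers (890 to 991 CPM) 1 was higher in KO. In ventricle RNA, more cells of a type and more RNA per cell cannot be told apart, and the part of these cells in the values of the family was not tested.

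**Figure D1:**
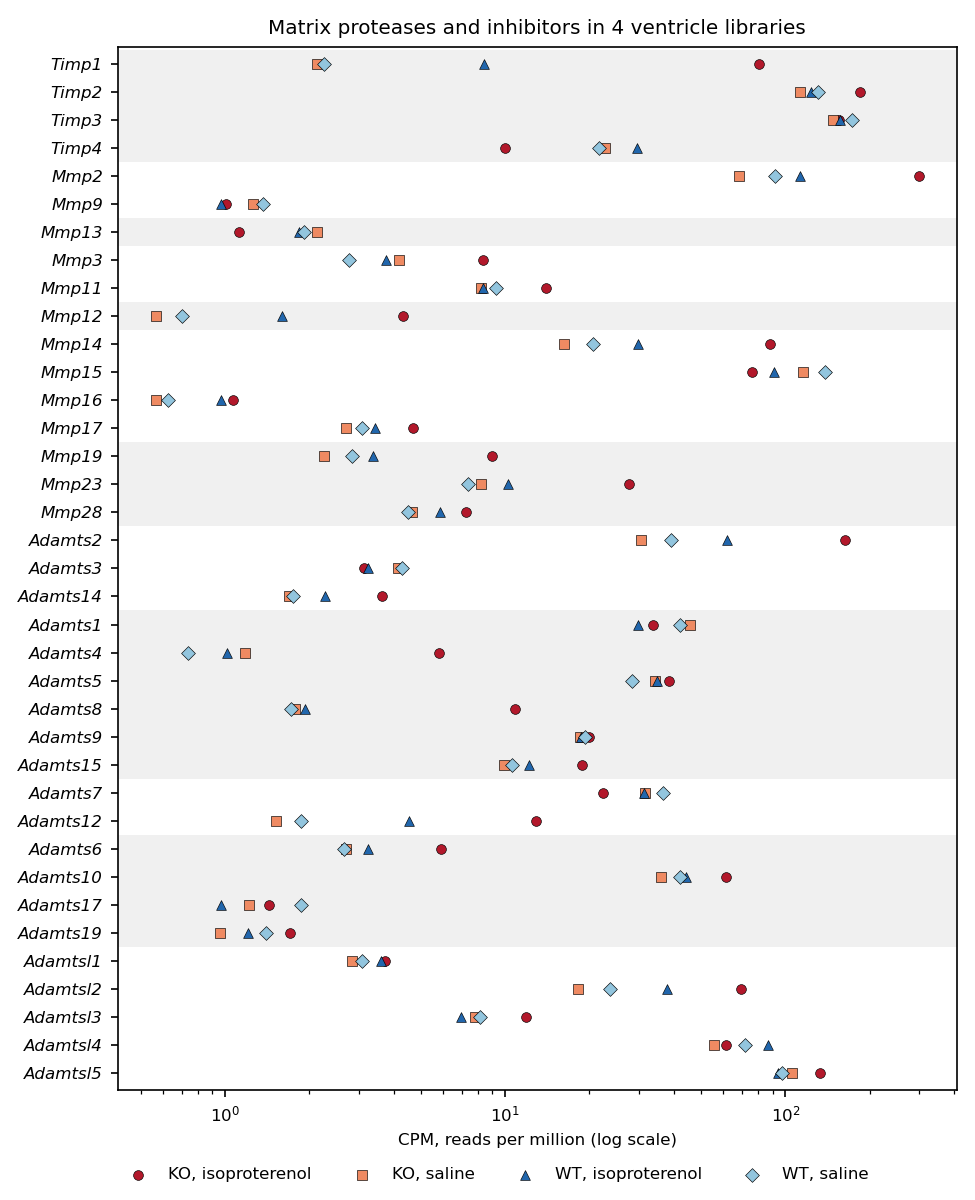
CPM of the 37 members with enough reads in each of the 4 libraries, on a log axis, with members grouped by role (shaded bands). The KO isoproterenol library (red circles) lies apart to the right for Timp1, Mmp2, Mmp14, Adamts2 and Adamts8, and to the left for Timp4.

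Of the inhibitors, Timp1 (ENSMUSG00000001131, GRCm38 chromosome X, 20870166 to 20874735), a secreted TIMP that is induced in injured tissue, stood at 80.7 CPM in the KO isoproterenol, 2.13 CPM in the KO saline, 8.40 CPM in the WT isoproterenol and 2.26 CPM in the WT saline library. Both treated libraries were above both saline libraries, and the KO one was far above the WT one. The ratio of isoproterenol to saline was 33.0-fold (25.1 to 45.3) in KO and 3.90-fold (2.90 to 5.38) in WT. Timp4 (ENSMUSG00000030317, chromosome 6, 115241892 to 115252205), the TIMP known for its high level in heart, stood at 9.96 CPM in the KO isoproterenol, 22.7 CPM in the KO saline, 29.5 CPM in the WT isoproterenol and 21.7 CPM in the WT saline library. It had its lowest value in the library in which Timp1 had its highest. Timp4 was 2.58-fold lower (2.19 to 3.08) with isoproterenol in KO, and in WT it was 1.44-fold higher (1.28 to 1.62), which is not counted.

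Timp2, which inhibits Mmp2 and also takes part in the activation of its precursor, stood at 184 CPM in the KO isoproterenol, 112 CPM in the KO saline, 124 CPM in the WT isoproterenol and 131 CPM in the WT saline library. Its KO ratio of 1.45-fold (1.37 to 1.52) was not counted, although it was with total-count scaling, at 1.64-fold (1.56 to 1.73). In WT the ratio of Timp2 was 0.997-fold (0.947 to 1.05). Timp3, the TIMP that binds to matrix and also inhibits ADAMTS proteases, lay between 148 and 173 CPM in the 4 libraries. Its ratios of isoproterenol to saline were both close to 1, at 1.09-fold lower (1.03 to 1.14) in KO, or 1.04-fold higher (0.993 to 1.10) with total-count scaling, and 1.04-fold lower (0.996 to 1.09) in WT. Introns of Syn1, Syn2 and Syn3 host Timp1, Timp4 and Timp3 on the other strand, and 21.3% of the exon bases of Timp3 overlap exons of Syn3, which held at most 21 reads in any library.

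Per kilobase of exon, which allows levels of different genes to be set side by side, the 4 TIMPs summed to 159 CPM per kb in the KO isoproterenol, 53.3 in the KO saline, 65.4 in the WT isoproterenol and 61.0 in the WT saline library. Timp1 made up 57.2% of that sum in the KO isoproterenol, 4.50% in the KO saline, 14.5% in the WT isoproterenol and 4.18% in the WT saline library. Timp2 was the most abundant TIMP per kb in the KO saline, WT isoproterenol and WT saline libraries, at 54.1%, 48.5% and 55.1% of the sum. It made up 29.8% in the KO isoproterenol library. The share of Timp4 was 1.06% in the KO isoproterenol library, against 7.23%, 7.66% and 6.03% in the KO saline, WT isoproterenol and WT saline libraries.

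The promoter of Timp1 is shown because it belongs to the member with the largest ratio (chrX:20869916-20870215, GRCm38.p6, plus strand, RefSeq, from 250 bases before the start of the gene to 50 after it). Capitals mark TGAGTAA, searched on both strands, a variant of the AP-1 motif that has been described for the rodent gene.
Timp1: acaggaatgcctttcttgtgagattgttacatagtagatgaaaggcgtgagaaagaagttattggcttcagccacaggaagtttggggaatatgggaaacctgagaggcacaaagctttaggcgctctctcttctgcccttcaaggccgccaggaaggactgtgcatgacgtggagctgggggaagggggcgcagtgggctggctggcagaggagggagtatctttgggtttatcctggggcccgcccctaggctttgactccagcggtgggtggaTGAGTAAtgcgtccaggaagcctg
The match lies at bases 27 to 33 after the start, and 2.68% of 32851 promoter windows of mouse genes hold TGAGTAA on either strand.

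Among the gelatinases, Mmp2 (ENSMUSG00000031740, chromosome 8, 92827291 to 92853420), which degrades basement membrane and denatured collagen, stood at 299.5 CPM in the KO isoproterenol, 68.4 CPM in the KO saline, 113 CPM in the WT isoproterenol and 91.6 CPM in the WT saline library. The KO isoproterenol library was the highest and KO saline the lowest of the 4. Mmp2 was 3.86-fold higher (3.65 to 4.09) with isoproterenol in KO and 1.30-fold higher (1.23 to 1.38) in WT. Mmp9, the gelatinase of neutrophils and macrophages, lay between 0.965 and 1.37 CPM, and its intervals held 1 in both pairs, with ratios of 0.713-fold (0.374 to 1.30) in KO and 0.755-fold (0.409 to 1.33) in WT.

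Mmp14 (ENSMUSG00000000957, chromosome 14, 54431612 to 54445364), the membrane-anchored MMP that cuts fibrillar collagen and activates the precursor of Mmp2, stood at 88.1 CPM in the KO isoproterenol, 16.2 CPM in the KO saline, 29.8 CPM in the WT isoproterenol and 20.5 CPM in the WT saline library. Each treated library was above the saline library of its genotype. The ratio was 4.77-fold (4.27 to 5.36) in KO and 1.54-fold (1.37 to 1.73) in WT, the second not counted. Mmp15 (ENSMUSG00000031790, chromosome 8, 95352268 to 95375080), another membrane-anchored MMP, stood at 75.9 CPM in the KO isoproterenol, 115.7 CPM in the KO saline, 90.8 CPM in the WT isoproterenol and 139 CPM in the WT saline library. It ran the other way from Mmp14, with both treated libraries below both saline libraries. Mmp15 was 1.73-fold lower (1.62 to 1.84) in KO, or 1.52-fold (1.43 to 1.63) and not counted with total-count scaling, and 1.45-fold lower (1.37 to 1.53) in WT, which is not counted.

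Mmp12 (ENSMUSG00000049723, chromosome 9, 7344381 to 7369499), the elastase of macrophages, stood at 4.32 CPM in the KO isoproterenol, 0.566 CPM in the KO saline, 1.59 CPM in the WT isoproterenol and 0.702 CPM in the WT saline library, which is 81, 13, 33 and 18 reads. Its ratio was 6.51-fold (3.72 to 13.2) in KO and 2.37-fold (1.31 to 4.52) in WT, a wide interval that is not counted. Mmp19 (ENSMUSG00000025355, chromosome 10, 128790910 to 128800824), which cuts basement membrane proteins, stood at 9.0 CPM in the KO isoproterenol, 2.26 CPM in the KO saline, 3.38 CPM in the WT isoproterenol and 2.85 CPM in the WT saline library. The KO isoproterenol library stood apart while the other 3 were close together, and the ratios were 3.48-fold (2.55 to 4.88) in KO and 1.25-fold (0.890 to 1.76) in WT. Exons of Tmem198b overlap 22.3% of its exon bases, so some reads may be shared. Mmp23 (ENSMUSG00000029061, chromosome 4, 155650655 to 155653384), an MMP with a transmembrane signal anchor, stood at 27.6 CPM in the KO isoproterenol, 8.19 CPM in the KO saline, 10.2 CPM in the WT isoproterenol and 7.37 CPM in the WT saline library. It was 2.97-fold higher (2.51 to 3.54) with isoproterenol in KO and 1.47-fold higher (1.2 to 1.79) in WT, the second not counted.

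Summed per kilobase, the MMPs reached 146 CPM per kb in the KO isoproterenol, 57.0 in the KO saline, 69.2 in the WT isoproterenol and 68.3 in the WT saline library. Mmp2 made up 60.8% of that sum in the KO isoproterenol, 35.6% in the KO saline, 48.3% in the WT isoproterenol and 39.8% in the WT saline library. Mmp15 made up 9.62% in the KO isoproterenol library, against 37.6%, 24.3% and 37.7% in the KO saline, WT isoproterenol and WT saline libraries. The summed MMP level divided by the summed TIMP level was 0.920 in the KO isoproterenol, 1.07 in the KO saline, 1.06 in the WT isoproterenol and 1.12 in the WT saline library. The order of these ratios depends on the exon lengths, such as 0.888 kb for Timp1 and 3.37 kb for Mmp2. In plain CPM the ratio was highest, not lowest, in the KO isoproterenol library. Both sums were higher in the treated KO library, with Timp1 and Mmp2 as the largest parts, while Timp4 and Mmp15 were lower there.

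**Figure D2:**
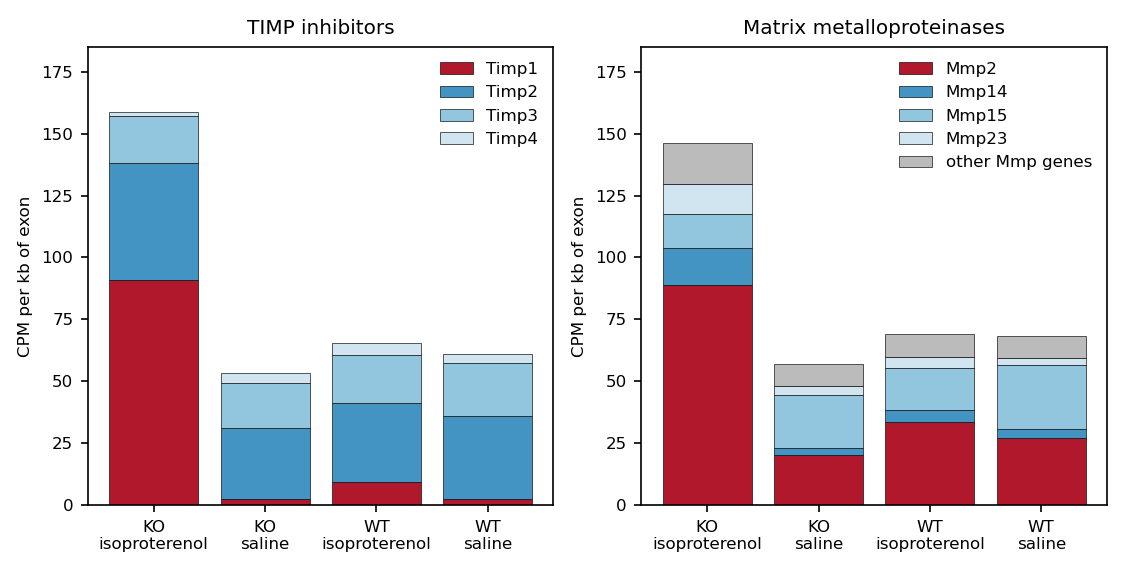
Summed CPM per kilobase of exon for the TIMPs (left) and the MMPs (right) in each library, stacked by gene. The KO isoproterenol bars reach 159 and 146 CPM per kb, with Timp1 at 57.2% of the first and Mmp2 at 60.8% of the second.

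Most of the other MMP genes were barely detected. On chromosome 9, between 7272514 and 7699585, 10 Mmp genes lie side by side over 427 kb (Mmp13, Mmp12, Mmp1b, Mmp3, Mmp1a, Mmp10, Mmp8, Mmp27, Mmp20 and Mmp7), and of these Mmp3, Mmp12 and Mmp13 had a mean of at least 10 reads. Mmp3, a stromelysin that degrades proteoglycans and activates other MMPs, stood at 8.36 CPM in the KO isoproterenol, 4.18 CPM in the KO saline, 3.76 CPM in the WT isoproterenol and 2.77 CPM in the WT saline library, and was not counted in KO at 1.76-fold (1.36 to 2.30), although it was with total-count scaling at 2.0-fold (1.54 to 2.61). Mmp13, the main collagenase of rodents, had 1.12 CPM in the KO isoproterenol, 2.13 CPM in the KO saline, 1.83 CPM in the WT isoproterenol and 1.91 CPM in the WT saline library. These 3 neighbours therefore had different orders of libraries.

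Promoters of 5 genes of this cluster are shown, 3 with enough reads and 2 nearly silent, because they share letters close to an annotated start (RefSeq, GRCm38.p6, plus strand, from 100 bases before the start to 20 after it). For Mmp12 the window was picked because it holds TGANTCA, and TATAAA lies there at bases 5 to 10 after the start. The other Mmp12 window, chr9:7344147-7344446, is nearer the gene start given above and holds neither. They lie at chr9:7272414-7272533 (Mmp13), chr9:7347274-7347393 (Mmp12), chr9:7445722-7445841 (Mmp3), chr9:7464041-7464160 (Mmp1a) and chr9:7502242-7502361 (Mmp10). Capitals mark TGANTCA, the core motif of AP-1 factors, which reads the same on both strands, and TATAAA on the strand of the gene.
Mmp13: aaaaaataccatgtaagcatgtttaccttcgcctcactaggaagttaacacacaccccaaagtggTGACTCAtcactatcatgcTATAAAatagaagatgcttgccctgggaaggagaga
Mmp12: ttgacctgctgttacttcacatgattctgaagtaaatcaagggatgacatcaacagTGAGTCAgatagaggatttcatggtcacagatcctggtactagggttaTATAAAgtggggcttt
Mmp3: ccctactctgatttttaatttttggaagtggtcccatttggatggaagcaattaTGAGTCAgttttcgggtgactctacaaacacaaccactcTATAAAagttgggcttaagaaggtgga
Mmp1a: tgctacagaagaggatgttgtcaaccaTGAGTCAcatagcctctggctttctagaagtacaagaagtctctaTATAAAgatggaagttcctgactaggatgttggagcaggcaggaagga
Mmp10: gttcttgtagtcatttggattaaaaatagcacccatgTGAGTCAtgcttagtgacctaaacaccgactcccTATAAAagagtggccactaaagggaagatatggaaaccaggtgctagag
TGANTCA was found in 8 of the 10 cluster genes, of which Mmp12 and Mmp7 have a second window without it, and in 0 of the 26 other members with a promoter in that set. TATAAA was found in 8 of the 10 and in 3 of the 26. Over 32851 promoter windows of the same length, 7.81% hold TGANTCA and 8.32% hold TATAAA. Of the 14 members counted in any comparison 10 had a promoter there, and among them the TGANTCA letters stood in Mmp12. Mmp1a and Mmp10 carry both sets of letters and had 0 reads and 1 read in all 4 libraries together.

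The procollagen N-propeptidase Adamts2 (ENSMUSG00000036545, chromosome 11, 50602084 to 50807573), which removes the amino-terminal propeptide of fibrillar collagens, stood at 163 CPM in the KO isoproterenol, 30.5 CPM in the KO saline, 62.2 CPM in the WT isoproterenol and 39.0 CPM in the WT saline library. Both treated libraries were above both saline libraries. The ratio was 4.70-fold (4.33 to 5.11) in KO and 1.68-fold (1.55 to 1.83) in WT, or 1.59-fold (1.47 to 1.73) and not counted in WT with total-count scaling. Its relatives with the same activity had other ratios. Adamts14 had a KO ratio of 1.87-fold (1.25 to 2.86), and Adamts3 was 1.49-fold lower (1.07 to 2.10), neither counted.

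Adamts12 (ENSMUSG00000047497, chromosome 15, 11064790 to 11349231), which can cut the cartilage matrix protein Comp, stood at 12.8 CPM in the KO isoproterenol, 1.52 CPM in the KO saline, 4.54 CPM in the WT isoproterenol and 1.87 CPM in the WT saline library. It was 7.34-fold higher (5.19 to 10.9) with isoproterenol in KO and 2.55-fold higher (1.79 to 3.70) in WT, both counted. Adamts7, its closest relative in domain structure, had 22.3 CPM in the KO isoproterenol, 31.6 CPM in the KO saline, 31.3 CPM in the WT isoproterenol and 36.5 CPM in the WT saline library. It was 1.60-fold lower (1.42 to 1.81) in KO, not counted, so these relatives had ratios on opposite sides of 1.

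Among the 7 proteoglycanases, which cut aggrecan, versican and related molecules, 2 of the 6 with enough reads were counted in the KO pair and 0 in the WT pair. Adamts8 (ENSMUSG00000031994, chromosome 9, 30942562 to 30963838) stood at 10.9 CPM in the KO isoproterenol, 1.79 CPM in the KO saline, 1.93 CPM in the WT isoproterenol and 1.72 CPM in the WT saline library. The last 3 values lie close together, and the ratio was 5.31-fold (3.82 to 7.70) in KO and 1.19-fold (0.755 to 1.87) in WT. Adamts4 (ENSMUSG00000006403, chromosome 1, 171250421 to 171260637), an aggrecanase, stood at 5.81 CPM in the KO isoproterenol, 1.18 CPM in the KO saline, 1.01 CPM in the WT isoproterenol and 0.741 CPM in the WT saline library. Its ratio was 4.29-fold (2.83 to 6.90) in KO and 1.44-fold (0.740 to 2.84) in WT, on 19 to 109 reads per library. Adamts15, 20110 bases from Adamts8, had a KO ratio of 1.67-fold (1.41 to 1.98), which was not counted, although it was with total-count scaling, at 1.90-fold (1.60 to 2.25).

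Adamts1, which cuts versican, and its neighbour Adamts5, an aggrecanase, lie 53060 bases apart on chromosome 16. Adamts1 had 33.7 CPM in the KO isoproterenol, 45.5 CPM in the KO saline, 29.7 CPM in the WT isoproterenol and 42.0 CPM in the WT saline library, with both treated libraries below both saline libraries. Its ratios, 1.53-fold lower (1.39 to 1.70) in KO and 1.34-fold lower (1.21 to 1.48) in WT, were not counted. Adamts5 had between 28.4 and 38.4 CPM and ratios of 1.01-fold lower (0.915 to 1.12) in KO, or 1.12-fold higher (1.01 to 1.24) with total-count scaling, and 1.29-fold higher (1.16 to 1.44) in WT. The intervals of Adamts9 held 1 in both pairs, at 1.05-fold lower (0.913 to 1.21) in KO and 1.02-fold higher (0.886 to 1.16) in WT, and both directions flipped with total-count scaling, to 1.08-fold and 0.961-fold.

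Of the ADAMTS-like proteins, Adamtsl2 (ENSMUSG00000036040, chromosome 2, 27079379 to 27108981), which binds fibrillin microfibrils, stood at 69.5 CPM in the KO isoproterenol, 18.2 CPM in the KO saline, 37.8 CPM in the WT isoproterenol and 23.7 CPM in the WT saline library. Both treated libraries were above both saline libraries. The ratio was 3.36-fold (3.01 to 3.76) in KO and 1.69-fold (1.51 to 1.88) in WT, or 1.60-fold (1.43 to 1.78) and not counted in WT with total-count scaling. Adamtsl4 (ENSMUSG00000015850, chromosome 3, 95676201 to 95687917), another partner of fibrillin, stood at 61.4 CPM in the KO isoproterenol, 55.9 CPM in the KO saline, 86.5 CPM in the WT isoproterenol and 71.6 CPM in the WT saline library. Both KO libraries were below both WT libraries, and its ratio of isoproterenol to saline was 1.03-fold lower (0.952 to 1.12) in KO, or 1.10-fold higher (1.01 to 1.19) with total-count scaling, and 1.28-fold higher (1.2 to 1.36) in WT.

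**Figure D3:**
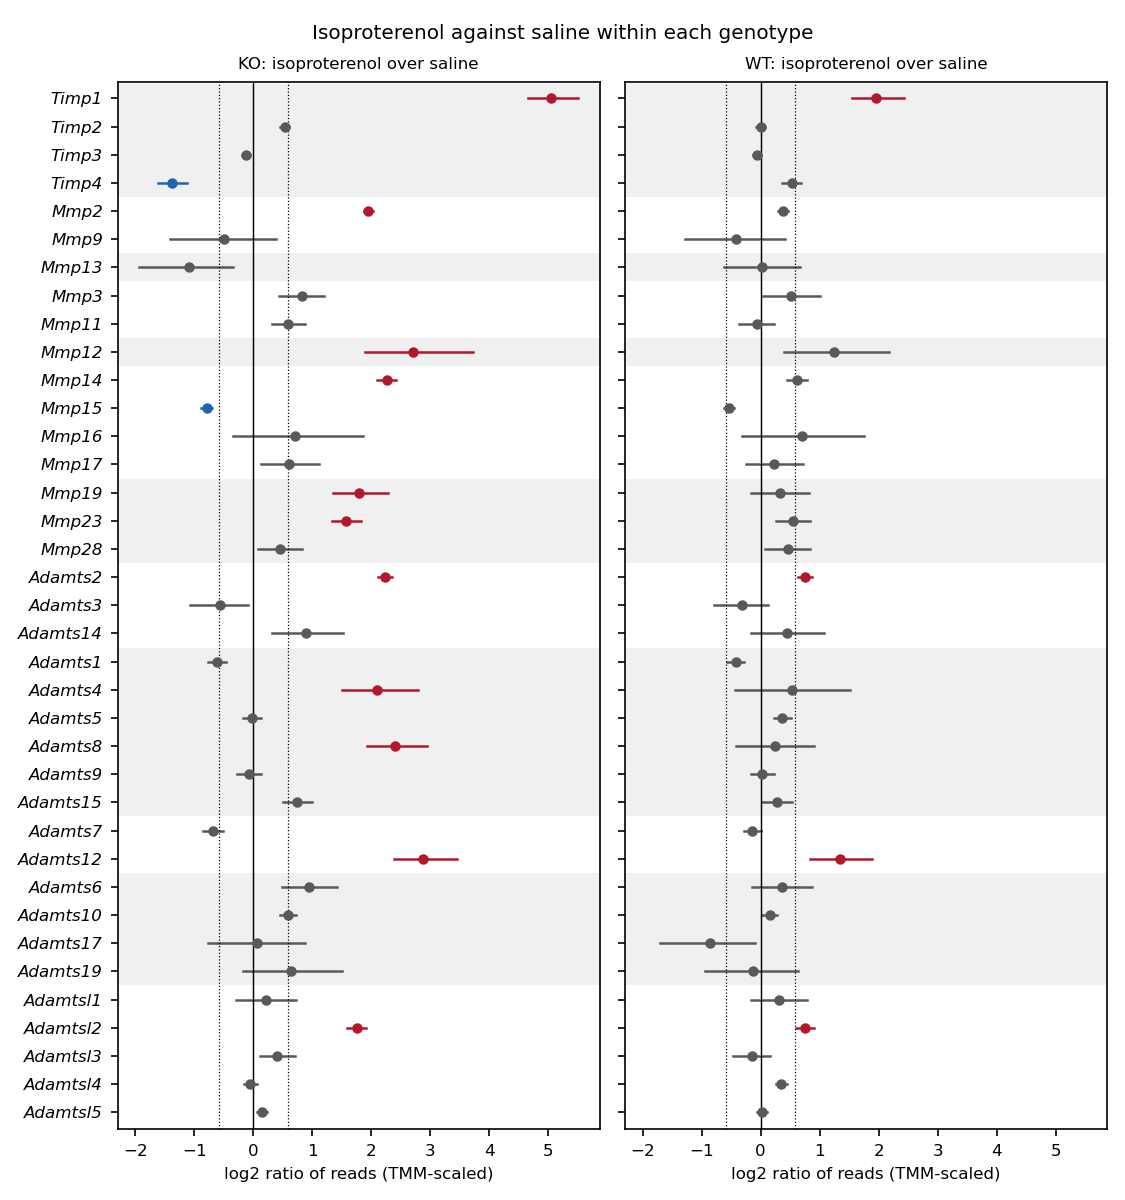
Log2 ratio of isoproterenol to saline with its 95% counting interval for the 37 members, in KO (left) and WT (right). Dotted lines mark 1.5-fold, and red and blue mark members counted as higher (11 in KO, 4 in WT) and lower (2 in KO, 0 in WT).

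The 21 remaining members with enough reads, neither TIMPs nor counted in any comparison, lay between 0.566 and 133 CPM. The most abundant were Adamtsl5, a secreted ADAMTS-like protein, Adamts10, which binds fibrillin, and Adamts1. Their KO ratios ran between 0.468-fold (Mmp13) and 1.92-fold (Adamts6), and their WT ratios between 0.553-fold (Adamts17) and 1.62-fold (Mmp16). In the KO pair the interval of 10 lay above 1 and that of 4 below 1, and in the WT pair of 5 above and 2 below. Over all genes the shares with intervals above and below 1 were 27.2% and 27.6% in the KO pair, and 15.3% and 16.1% in the WT pair. Of these members, Adamts10, at 1.71-fold (1.56 to 1.87), and Adamts6, at 2.18-fold (1.59 to 3.04), were counted in the KO pair with total-count scaling. Members with some reads but a mean under 10 were Mmp8, Mmp10, Mmp21, Mmp24, Mmp25, Mmp27, Adamts16, Adamts18 and Adamts20, with at most 15 reads in any library. Named after its values were seen, Adamts16 had 15 reads in the KO isoproterenol, 0 in the KO saline, 3 in the WT isoproterenol and 0 in the WT saline library. The counting interval of its KO ratio starts at 3.87-fold. With the 15 reads taken as exact and 3 reads as the limit that a count of 0 allows in a library, the ratio is at least 5.39-fold higher with isoproterenol. Mmp1a, Mmp1b, Mmp7, Mmp20 and Adamts13, the protease that cuts von Willebrand factor in plasma, had 0 reads in all 4 libraries, which allows up to 0.160, 0.131, 0.145 and 0.117 CPM in the KO isoproterenol, KO saline, WT isoproterenol and WT saline libraries.

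The difference between the responses, the KO ratio over the WT ratio, was beyond 1.5-fold for 9 members on the side of a higher response in KO and 1 on the side of a lower one, where 3.83% and 1.73% of all genes were (5.57% in either). With total-count scaling 11 members lay on the first side and 1 on the other, and over all genes 1062 and 85, against 548 and 248 with TMM. With 1 library per group there is no error for an interaction, and no test of it was made. The log2 difference was 3.08 (2.49 to 3.67) for Timp1, 2.16 (1.38 to 2.94) for Adamts8, 1.64 (1.40 to 1.87) for Mmp14, 1.57 (1.46 to 1.69) for Mmp2, 1.53 (0.81 to 2.24) for Adamts12, 1.48 (1.31 to 1.65) for Adamts2, 1.47 (0.82 to 2.12) for Mmp19, 1.02 (0.65 to 1.39) for Mmp23 and 0.99 (0.77 to 1.21) for Adamtsl2. It was −1.90 (−2.19 to −1.60) for Timp4. Mmp12, at 1.46 (0.29 to 2.63), and Adamts4, at 1.57 (0.50 to 2.64), had intervals too wide to be counted, although Adamts4 was counted with total-count scaling, at a fold difference of 3.57 (1.70 to 7.5). Timp2, at 0.54, was also counted only with that scaling, at a fold difference of 1.74 (1.62 to 1.87). Mmp15 had −0.25 (−0.38 to −0.13), or 0.01 (−0.12 to 0.13) with total-count scaling.

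**Figure D4:**
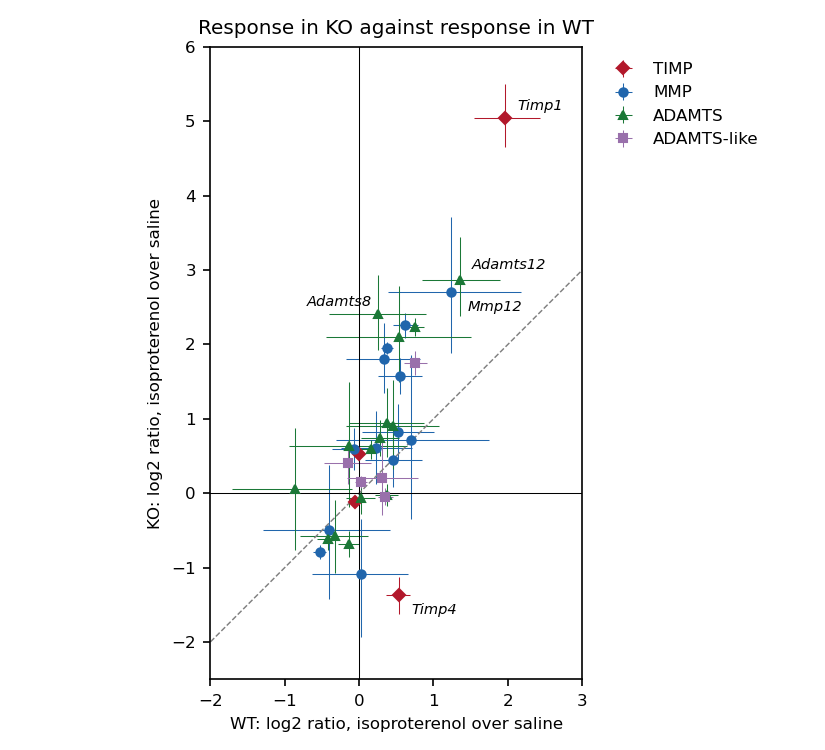
Log2 ratio of isoproterenol to saline in KO (vertical) against WT (horizontal) for the 37 members, with 95% counting intervals and a dashed line of equal response. Timp1 lies farthest up at 5.04 in KO and 1.96 in WT, and Timp4 lies below 0 in KO (−1.37) and above 0 in WT (0.53).

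Under isoproterenol, KO against WT gave 10 members higher and 2 lower, where 4.20% and 1.80% of all genes were counted. With total-count scaling 12 members were higher and 1 lower, and over all genes 1044 were higher and 112 lower, against 600 and 258 with TMM. This comparison shares the KO isoproterenol library with the KO pair, so its values are not a separate observation of it. Timp1 was 8.27-fold higher (7.09 to 9.76) in KO, Adamts4 4.85-fold (3.08 to 8.31), Adamts8 4.81-fold (3.45 to 7.00) and Mmp14 2.55-fold (2.32 to 2.80). Mmp2, Mmp12, Mmp19, Mmp23, Adamts2 and Adamts12 were higher by between 2.26-fold and 2.43-fold. Timp4 was 3.43-fold lower (2.91 to 4.07) and Adamtsl4 1.63-fold lower (1.52 to 1.76), or 1.41-fold (1.31 to 1.52) and not counted with total-count scaling. Adamtsl2 was 1.59-fold higher (1.45 to 1.73), which is not counted, although it was with total-count scaling, at 1.84-fold (1.68 to 2.01). Mmp3 was also counted only with that scaling, at 2.21-fold (1.68 to 2.95).

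Under saline, KO against WT gave 0 members higher and 0 lower, where 0.273% and 0.217% of all genes were counted (0.489% in either). The median log2 ratio of the 37 members was −0.07, and 25 of them had a ratio below 1. Intervals of 10 members lay below 1 and of 4 above it, where those of 10.2% and 11.2% of all genes did. Above 1 were Mmp3 at 1.56-fold higher (1.14 to 2.15), Adamts5 at 1.25-fold higher (1.13 to 1.39), and Adamts1 and Adamtsl5, both at 1.12-fold higher. Among those below 1 were Mmp2 at 1.30-fold lower (1.21 to 1.38), Adamtsl2 at 1.26-fold lower (1.11 to 1.43), Adamts2 at 1.23-fold lower (1.12 to 1.36) and Mmp14 at 1.22-fold lower (1.07 to 1.40). Timp1 had a ratio of 1.02-fold lower (0.688-fold to 1.53-fold), and Timp4 one of 1.08-fold higher (0.961 to 1.22). The KO saline library is also the denominator of the KO ratios of isoproterenol to saline.

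**Figure D5:**
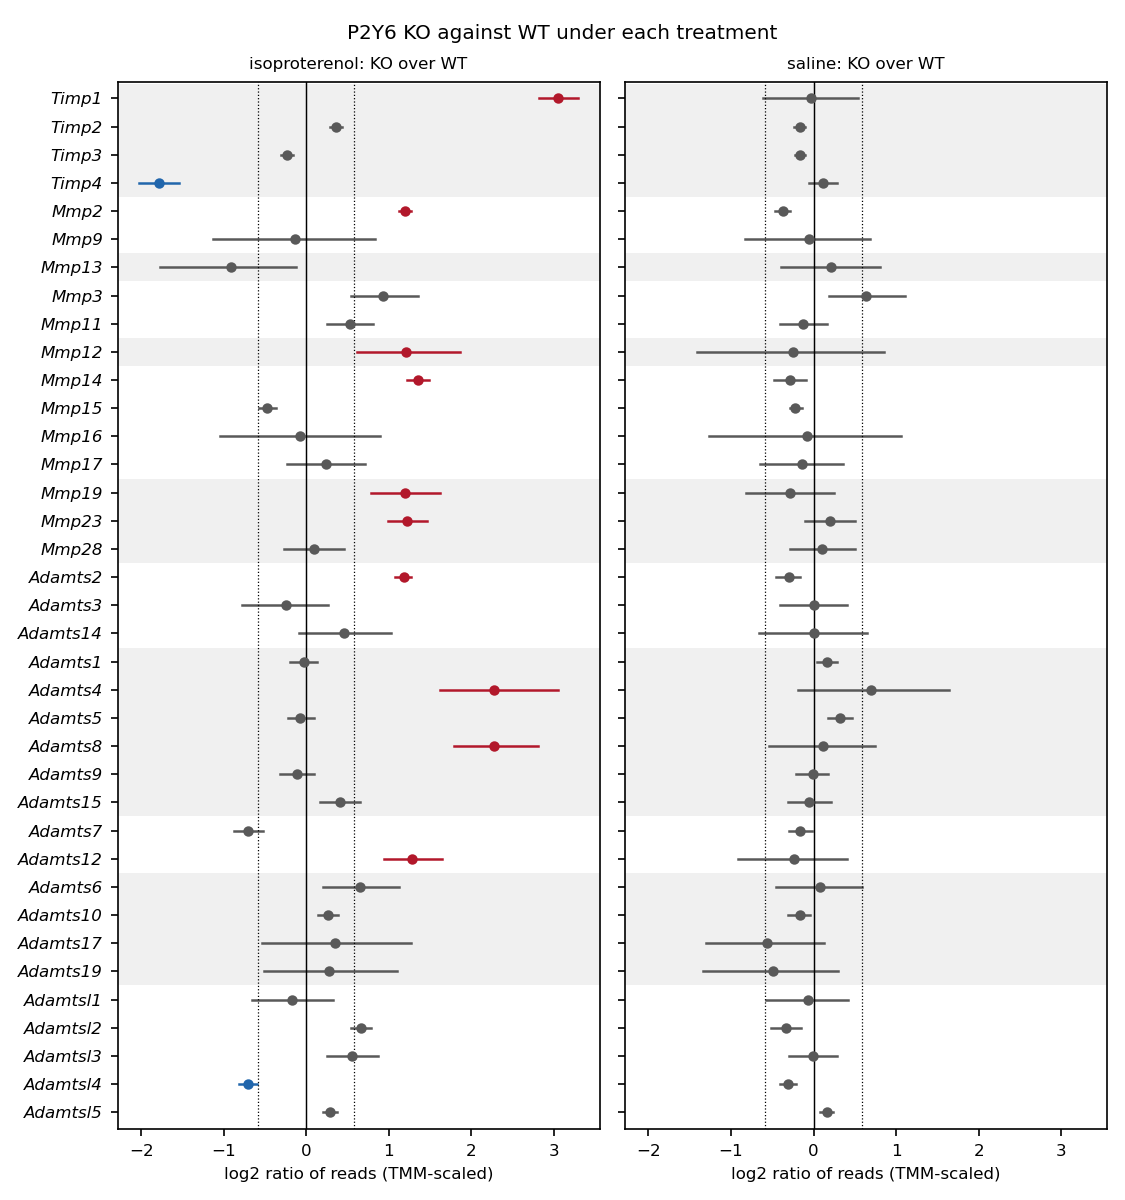
Log2 ratio of KO to WT with its 95% counting interval for the 37 members, under isoproterenol (left) and saline (right). Red and blue mark members counted as higher (10 under isoproterenol, 0 under saline) and lower (2 and 0), and dotted lines mark 1.5-fold.

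Genotype and treatment were also fitted together, without interaction, to all 4 libraries (limma on log2(CPM + 1), 1 residual degree of freedom). That degree of freedom is the interaction itself, so it is not error between replicates. Of the 8 members called by treatment below, all but Mmp12 were counted above as differing in response between KO and WT. For these the common log2 change describes neither genotype. By treatment limma called 8 of the 37 members, all higher, where 2.57% of all genes were called in either direction and 1.69% as higher. These were Timp1 (log2 change 3.12, limma adjusted p = 0.000393), Adamts2 (1.52, 0.0021), Adamts12 (1.70, 0.00371), Adamtsl2 (1.26, 0.00414), Mmp14 (1.44, 0.007), Mmp2 (1.21, 0.0148), Mmp12 (1.19, 0.024) and Mmp23 (1.03, 0.0486), each higher in both treated libraries. With a pseudocount of 0.5 limma called 9 members and 492 of all 14301 genes. The 9th member was Mmp15, which was lower (limma adjusted p = 0.0392, against 0.0521 in the fit above). With no filter on low reads limma called 12 of 46 members and 965 of 24267 genes. Of these 12 members, 11 were higher and 1, Mmp15, lower (limma adjusted p = 0.0106). With TMM-scaled CPM the same test called 0 members and 1 gene of all, and edgeR on the recovered reads called 0 members and 22 genes. In these 2 fits 17 and 18 members had an unadjusted p under 0.05, as did 2011 and 2171 of all 14301 genes. By genotype limma called 0 members, where 0.0979% of all genes were called (0.0420% as higher), and edgeR called 0. At an unadjusted p under 0.05 limma had 8 members and 586 of all 14301 genes, and edgeR had 7 members and 519 genes.

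Of 18 activators, inhibitors and clearance genes of matrix proteases, 16 had enough reads. In the KO pair 4 were higher and 1 lower (median log2 ratio 0.49), and in the WT pair 1 was higher and 0 lower (0.13). Bsg, a surface protein known to induce MMPs, was 1.66-fold lower (1.63 to 1.70) in KO, and Lrp1, the receptor that clears many proteases and TIMP complexes, was 1.77-fold higher (1.71 to 1.84). Pcolce, which enhances the removal of procollagen propeptides, was 3.52-fold higher (3.30 to 3.76) in KO. The gene counted in WT was Serpine2, a secreted inhibitor of serine proteases, at 1.72-fold (1.56 to 1.89), with 3.88-fold (3.56 to 4.25) in KO.

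Of 11 ADAM proteases, the membrane-bound relatives of the family, 10 had enough reads, and 3 were higher in the KO pair and 1 in the WT pair, with 0 lower in either (medians 0.39 and −0.20). Adam12 was 13.0-fold higher (7.90 to 24.4) in KO and 2.80-fold (1.72 to 4.81) in WT, and Adam8 had a log2 ratio of 3.55 (2.92 to 4.32) in KO. Adam19 was 1.72-fold higher (1.56 to 1.90) in KO. Of 10 other collagen-cutting and astacin proteases 8 had enough reads, and 5 were higher in KO and 0 in WT, with 0 lower in either (medians 1.03 and 0.30). In KO they included the cathepsins Ctsb at 1.98-fold (1.94 to 2.03), Ctss at 3.07-fold (2.78 to 3.38) and Ctsk at 4.83-fold (3.89 to 6.10), and Bmp1, which removes the carboxy-terminal propeptide of procollagens, at 2.37-fold (2.19 to 2.56).

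Of 13 substrates of the family 12 had enough reads, and 11 were higher in KO and 6 in WT, with 0 lower in either (medians 2.48 and 0.99). By reads the first were the collagen genes Col3a1 at 11.2-fold (10.9 to 11.5) in KO and 2.59-fold (2.53 to 2.65) in WT, and Col4a1, of basement membranes, at 2.55-fold (2.50 to 2.61) in KO. Col1a2 was 9.59-fold higher (9.28 to 9.90) in KO and 2.23-fold (2.16 to 2.30) in WT, and Col1a1 10.9-fold (10.5 to 11.4) in KO and 2.26-fold (2.19 to 2.34) in WT. Named after their values were seen, versican (Vcan), a substrate of the proteoglycanases, was 4.03-fold higher (3.64 to 4.48) in KO and not counted in WT at 1.52-fold (1.36 to 1.70). Comp, a substrate of Adamts7 and Adamts12, was 5.28-fold higher (4.50 to 6.26) in KO and at 1.01-fold (0.837 to 1.21) in WT.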

How the data were processed

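Poly(A) RNA libraries were prepared with a stranded kit, per the labels' protocols, and reads were counted per gene with HTSeq on GRCm38.p4 (mm10), per the submitters' processing notes. The sources used here name neither aligner, annotation release nor the strand setting of the count. The authors deposited CPM, and each column sums to 1000000. A column whose header names only the genotype was read as the saline group. Whole reads were recovered from the smallest step in each column, for 100% of values within 0.01 reads. On these reads edgeR called 22 genes by treatment and 3 by genotype.

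Ratios were scaled by TMM (edgeR 4.0.16; factors 1.10 for KO isoproterenol, 0.966 for KO saline, 0.946 for WT isoproterenol and 0.999 for WT saline), with 0.5 added to each count, and given exact conditional (Clopper-Pearson) intervals. The interval of the difference of responses came from the 4 counts. The tested genes (14301) had a mean of 10 reads or more. As reads carry no molecular identifiers, intervals and limits hold counting error alone. The additive fit used limma 3.58.1 with Benjamini-Hochberg adjustment at 0.05. The pairwise intervals were run on simulated counts with counting error alone, and the additive fit on simulated counts without an interaction. The first setting has no spread between animals and the second no difference in response, so neither run checks the calls made here. Alternatives were total-count scaling, another added count or pseudocount, no filter, TMM-scaled CPM and edgeR. Exon lengths and positions came from GENCODE M21 (GRCm38).

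The members, the lists and the naming rule were chosen with earlier results of these data known. That rule gives full values to TIMPs and to members counted in any comparison, the 3 most abundant of the rest by name, and at most 4 counted genes of each other list, of which 1 is not reported here. Mmp3, Mmp9, Mmp13, Adamts16, further members named for contrast, Serpine2, Vcan and Comp were chosen after their values were seen.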

Additional observations from a re-analysis of the deposited data

Results flagged for a closer look

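Of the 37 members with enough reads, Timp4 was the only one whose TMM-scaled intervals lay wholly on opposite sides of 1 in KO and WT. Between isoproterenol and saline it was lower in the KO pair (log2 ratio −1.37, −1.62 to −1.13) and higher in the WT pair (0.53, 0.36 to 0.69), a difference of −1.90 on the log2 scale. The difference between the genotypes was not tested, since each group held 1 library. With total-count scaling both directions of Timp4 were kept, but it was not the only such member. Timp2 then had log2 ratios of 0.71 (0.64 to 0.79) in the KO pair and −0.08 (−0.16 to −0.01) in the WT pair.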

How the results depend on the processing

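A smaller added count, or dropping the filter on low reads, left the 80 log2 ratios of the 16 named members and the counts of members within the limits used here. Dropping the filter does not alter the ratio of any gene, so for these ratios that outcome was fixed. The added count does not enter the pairwise intervals, so it could not change a pairwise call. Total-count scaling moved 26 of those 80 ratios and reversed 0 of the counted ones. It changed the sign of 4 that were not counted, Timp3 and Adamtsl4 in the KO pair (log2 ratios of 0.06 and 0.14, against −0.12 and −0.05 with TMM) and the KO minus WT differences of Timp3 and Mmp15 (0.20 and 0.01, against −0.06 and −0.25). Under it, 1 member was lower in the KO pair, 2 were higher (and 2 counted in all) in the WT pair, and 1 was lower in KO against WT under isoproterenol. Over all genes it gave 357 lower in the KO pair, 1044 higher and 112 lower in KO against WT under isoproterenol, and 1062 higher and 85 lower responses in KO. Over the 37 members it changed the sign of 22 ratios, 0 of them counted. In the additive fit, treatment called 0 members with TMM-scaled CPM (1 gene of all) and 0 with edgeR (22 genes). With no filter it called 12 members (965 of 24267 genes). With a pseudocount of 0.5 it called 9 members (492 of 14301 genes), and Mmp15 was lower in both. Genotype called 22 genes with a pseudocount of 0.5, 0 with TMM-scaled CPM, 3 with edgeR and 195 with no filter, including 1 member, Timp1. The cause was not tested. No paired analysis was possible because each group holds 1 library and the labels carry no replicate numbers. Leaving out a library would leave the additive fit no residual. Depth limits the members with few reads, such as Mmp12, Adamts4 and Mmp9.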
